A study of Mus musculus with 5 samples.

Results

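The cytosolic ribosomal protein genes were taken as all gene symbols in both expression tables that begin with Rpl or Rps followed by a number, together with Rplp0, Rplp1, Rplp2 and Rpsa, and without symbols marked as pseudogenes. The rule found 84 genes among the 24421 of each table, of which 51 belong to the large and 33 to the small subunit. Of these, 77 were canonical ribosomal proteins and 7 were paralogs, genes close in sequence to a canonical one (Rpl3l, Rpl7l1, Rpl10l, Rpl22l1, Rpl39l, Rps4l and Rps27l).

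The series holds 5 mouse libraries of total RNA, 1 per group. The first table gives MEFs, which are fibroblasts grown from CF-1 mouse embryos, the embryonic stem cell line V6.5 without treatment, and iPSCs, a line of induced pluripotent stem cells. The second table gives V6.5 cells that stably express a non-targeting control shRNA (NTC) or an shRNA against Gldc (shGldc), the glycine decarboxylase of the glycine cleavage system. Stem cells were grown without feeders on gelatin in serum replacement with a little serum and leukaemia inhibitory factor, whereas MEFs were grown in serum. Each stem cell group rests on 1 line, and NTC and shGldc cells on 1 shRNA each. With 1 library per group no difference has a replicate check, and no p-value is given. Levels are in FPKM, a count of sequenced fragments divided by transcript length and by the fragments mapped in the library, so they can be compared between genes per length. The values of a gene in the 5 libraries are always listed in the order MEFs, V6.5, iPSCs, NTC and shGldc.

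Ribosomes are built from ribosomal RNA and about as many different proteins as there are genes in this group, and most of these proteins are present as a single copy per ribosome. Growing cells therefore make these proteins in balanced amounts and devote a large part of their mRNA to them. Most of these mRNAs begin with a run of pyrimidines (a terminal oligopyrimidine tract, or TOP), through which mTOR signalling controls their translation together. Their genes have left many processed copies in the mouse genome, and these copies complicate the assignment of short reads.

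The libraries matched their labels. The FPKM of Gldc was 0.123, 59.7, 70.8, 74.7 and 2.07, so it was low in MEFs and in shGldc cells. The 10 pluripotency markers summed to 25.4, 7113, 5803, 4424 and 3845 FPKM, and the 10 fibroblast markers to 11486, 238, 93.1, 278 and 223. Of the macrophage markers, C1qa had an FPKM of 52.7 in MEFs and of at most 0.197 in the other libraries. The 6 macrophage markers summed to 158 in MEFs and to between 9.35 and 20.6 elsewhere. Cd68 made up nearly all of the sums outside MEFs. It was the only one of the 6 that was higher in iPSCs (19.9) than in MEFs (18.7). The part of macrophages in the MEF values below was not tested. In bulk RNA fewer cells of a type and less RNA per cell cannot be told apart. Depth, estimated from the steps between low FPKM values, was between 22100000 and 24700000 fragments in the first table and about 29000000 and 28800000 in the second, where it is uncertain by a factor of 2.

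The sequence around the transcription start was examined because the TOP tract lies there. RefSeq windows of mouse build GRCm38.p6, which run from 250 bases before to 50 bases after an annotated start, were matched by symbol for 63 of the 84 genes. The other 21 had no entry by symbol. The windows below show 30 bases before and 20 bases from the start for 5 genes with a long tract (Rps6, Rps10, Rps18, Rpl27a and Rpl35), for 3 genes whose levels are discussed with their copies (Rps27, Rpl26 and Rpl34), and for 2 pairs of a paralog and its partner (Rpl10 and Rpl10l, Rpl39 and Rpl39l). Letters run 5′ to 3′ on the strand of the gene, and capitals mark the longest unbroken run of C and T within 20 bases on either side of the start.
Rps6 (chr4:86857348-86857397, minus strand): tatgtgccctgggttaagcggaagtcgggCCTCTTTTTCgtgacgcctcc
Rps10 (chr17:27635225-27635274, minus strand): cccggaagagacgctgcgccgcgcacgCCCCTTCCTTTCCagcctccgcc
Rps18 (chr17:33955646-33955695, minus strand): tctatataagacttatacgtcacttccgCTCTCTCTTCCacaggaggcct
Rpl27a (chr7:109519165-109519214, plus strand): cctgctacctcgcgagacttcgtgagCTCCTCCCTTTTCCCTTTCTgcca
Rpl35 (chr2:39005112-39005161, minus strand): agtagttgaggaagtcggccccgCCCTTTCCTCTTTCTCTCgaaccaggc
Rps27 (chr3:90213629-90213678, minus strand): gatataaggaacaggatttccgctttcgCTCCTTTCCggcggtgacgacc
Rpl26 (chr11:68901536-68901585, plus strand): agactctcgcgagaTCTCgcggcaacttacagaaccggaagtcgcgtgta
Rpl34 (chr3:130730379-130730428, minus strand): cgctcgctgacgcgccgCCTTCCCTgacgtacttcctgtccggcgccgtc
Rpl10 (chrX:74270786-74270835, plus strand): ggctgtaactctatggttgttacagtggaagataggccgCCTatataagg
Rpl10l (chr12:66284382-66284431, minus strand): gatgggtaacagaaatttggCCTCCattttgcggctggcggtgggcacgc
Rpl39 (chrX:37085203-37085252, minus strand): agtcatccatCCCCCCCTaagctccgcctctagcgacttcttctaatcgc
Rpl39l (chr16:10170198-10170247, plus strand): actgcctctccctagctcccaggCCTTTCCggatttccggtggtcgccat

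The 5 genes of the first set had runs of 10, 13, 11, 20 and 18 pyrimidines across the start, in the order shown. Rps27 had 9, while the longest runs of Rpl26, Rpl10 and Rpl10l were 4, 3 and 5 bases. Those of Rpl34 and Rpl39 had 8 bases each, which began 13 and 20 bases before the start and ended before it. Of the 63 genes, 28 (44.4%) had a run of at least 8 pyrimidines within 20 bases of the start, as did 15.9% of all 27025 genes with a window and 14.4% of 7038 other genes that reached an FPKM of 1 in every library. Among 68 genes of the mitochondrial ribosome, whose mRNAs are not known as TOP mRNAs, it was 17.6%. Runs that lie wholly before the start, such as those of Rpl34 and Rpl39, are included, so these are not counts of TOP tracts. The first transcribed base was C in 33.3% of the 63 windows and in 16.2% of all windows. Annotated starts can lie some bases away from the start used in these cells, so a run that was not found is no statement about the mRNA.

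**Figure D1:**
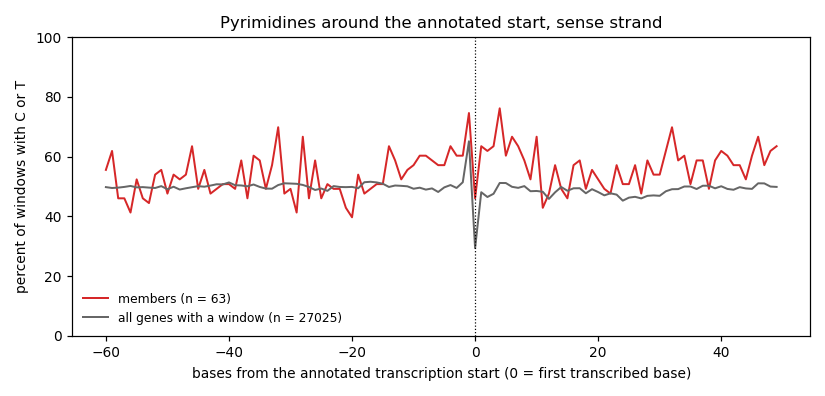
Percent of windows with C or T (y axis) at each base around the annotated transcription start (x axis, in bases, 0 is the first transcribed base) for 63 cytosolic ribosomal protein genes (red) and 27025 genes (grey). The red line reaches 76.2% at the fifth transcribed base, whereas the highest point of the grey line is 65.1%, just before the start.

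Short motifs were searched on both strands of the 300-base windows, and none of the motifs contains another. The ETS motif CCGGAAG was in 39.7% of the 63 windows and in 9.14% of all windows, but in 21.5% of those of the 7038 expressed genes and in 35.3% of those of the mitochondrial ribosomal protein genes. The YY1 motif AAGATGGC was in 9.52%, against 2.87% of all and 5.64% of expressed genes, and 17.6% of the mitochondrial ribosomal protein genes. The motifs GGGCGG (60.3% against 70.4% of expressed genes), CCAAT (30.2% against 39.8%) and CACGTG (7.94% against 11.3%) were not more frequent than among expressed genes. TATAAA was in 11.1% of the windows, against 5.73% of those of expressed genes and 14.2% of all. A match is a description of the letters and not a site of binding.

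The 84 genes lie on 19 chromosomes, with 14 on chromosome 7 as the largest number. In GENCODE M21, 30 of them (35.7%) hold at least 1 snoRNA gene within their bounds on the same strand, against 1.18% of 21951 protein coding genes. snoRNAs guide the modification of ribosomal RNA and are often cut from introns of genes for the translation machinery. Only Rpl10l and Rps4l have a single exon, and Rps4l is annotated as a transcribed processed pseudogene.

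Ribosomal protein genes were among the most abundant genes of every library. They held 17.6, 24.1, 27.5, 21.7 and 22.1 percent of the FPKM sum in the 5 libraries, so MEFs had the smallest and iPSCs the largest share. Because FPKM is per length and these mRNAs are short, this is a share of transcripts rather than of fragments. Of the 100 most abundant genes of each library, 52, 60, 64, 58 and 59 were of this group. Their median FPKM was 882, 1418, 1557, 1116 and 1159.9, and 73 of 84 reached an FPKM of at least 100 in every library. The value was lowest in MEFs for 60 members, against 44.1% of the 13656 genes that reached an FPKM of 1 in any library, and highest in iPSCs for 58, against 22.3%.

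**Figure D2:**
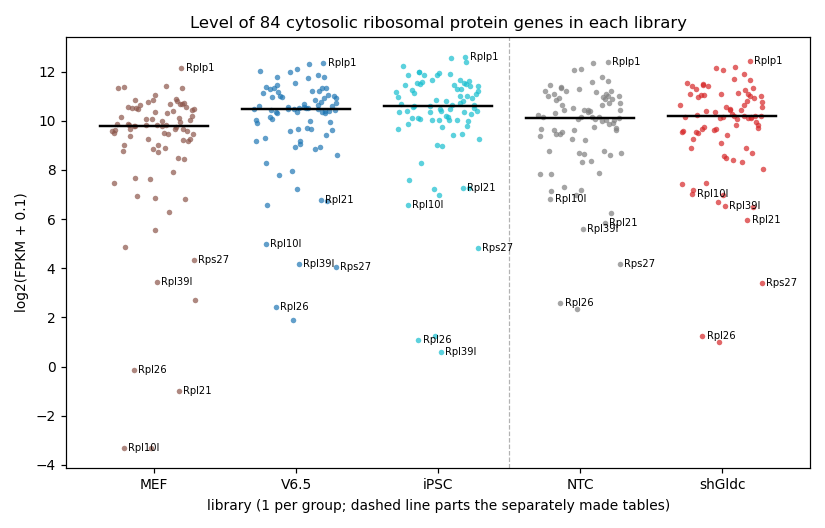
Level of the 84 ribosomal protein genes, as log2(FPKM + 0.1) on the y axis, in each of the 5 libraries on the x axis. Points are genes, black bars are medians, and named genes include the highest, Rplp1, and several that fall far below the rest. The medians correspond to FPKM of 882 in MEFs and 1557 in iPSCs, and Rpl10l and Rpl3l lie together at the bottom in MEFs, where both are listed at 0.

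The member with the highest value in every library was Rplp1, a protein of the stalk that binds translation factors, with FPKM of 4573, 5246, 6232, 5325 and 5587. The next by mean log2 level were Rps2, a small subunit protein near the mRNA entry channel, with 1274, 5067, 6055, 5255 and 4675, and Rpl8, a core protein of the large subunit, with 2148, 4404, 3978, 4465 and 4256. These orders differ by library, since Rps2 was ranked 46 of all genes in MEFs and 3 in iPSCs. Rpl13a (2570.2, 3555, 5382, 3135 and 3228) and Rpl13 (1747, 4043, 3237, 4318 and 4564) followed. The difference between Rpl8, Rpl13a and Rpl13 is smaller than the shifts of each between libraries, so their order is not settled by these data. Over the 77 canonical genes, Spearman's rho of the log2 levels was 0.98 between NTC and shGldc, 0.92 between V6.5 and iPSCs, 0.88 between V6.5 and MEFs, and 0.81 between iPSCs and MEFs. These coefficients describe genes that share transcript length and sequence in all libraries.

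Levels of the subunits were compared over the canonical genes. The median FPKM of the 46 canonical large subunit genes was 896, 1427, 1395, 1212 and 1179 in the 5 libraries, and that of the 31 small subunit genes was 939, 1538, 2004, 1134 and 1372. The small subunit median was the higher in every library but NTC, and the difference was not tested.

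Rpl26 and Rps27 had FPKM far below most canonical members in every library, and Rpl34 was also low. Rpl26, a large subunit protein near the exit of the peptide tunnel, had an FPKM of only 0.796, 5.302, 2.03, 5.98 and 2.29. Rps27, a small subunit protein with a zinc finger, had 19.99, 16.4, 28.3, 18.2 and 10.5, and Rpl34 had 29.1, 96.2, 192, 143 and 145. For each of them the tables list a separate gene that shares some of the sequence, and these copies were looked up after the low values had been seen.

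Gm15772 is a processed pseudogene of Rpl26 on chromosome 5 (GRCm38, 3236431 to 3236868, plus strand) that holds 37.4% of the 50-nt stretches of the protein coding Rpl26 transcripts. Its FPKM was 706, 1469.9, 2225, 969 and 1205. The sum of both was 707, 1475, 2227, 975 and 1208, which puts at least 99.4% of the pair on the copy in every library and the sum within the range of other members. Rps27rt, a single-exon gene on chromosome 9 (114982366 to 114982739, minus strand) with 46.2% of the Rps27 stretches, had 987, 1059, 1479, 763 and 824. The sum was 1007, 1076, 1507, 781 and 834, with at least 97.7% on Rps27rt.

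Rpl34-ps1, a processed pseudogene on chromosome 6 (71124610 to 71124963, plus strand), holds 10.97% of the stretches of the 5 Rpl34 transcripts, while 71.5% of its own stretches occur in Rpl34. Its FPKM was 5.67, 496, 1809, 403 and 511, so that it was lower than Rpl34 in MEFs and higher in the 4 stem cell libraries. Rpl14-ps1 held 49.3% of the Rpl14 stretches and between 23.6% and 26.8% of the pair's FPKM in all 5 libraries. Gm12191, a processed pseudogene of Rpl30, was at 142 in iPSCs and at most 3.16 in the others. Which genomic copy a read came from was not tested, since reads were not used here.

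**Figure D3:**
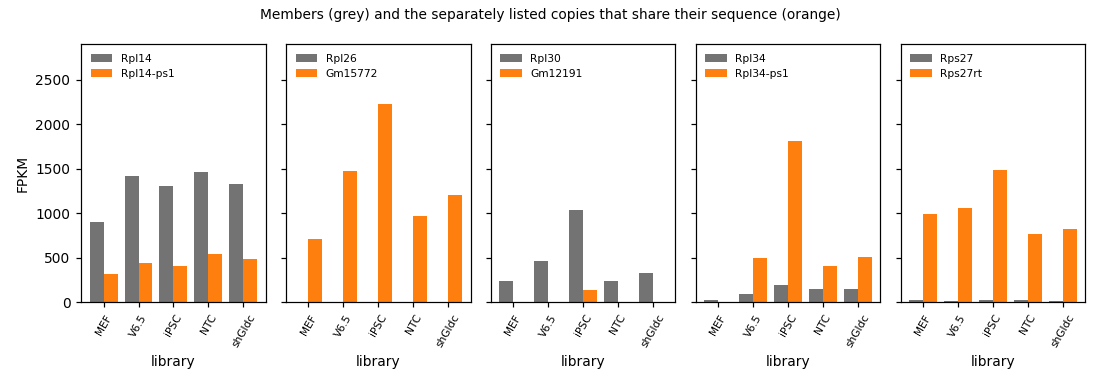
FPKM (y axis) of 5 ribosomal protein genes (grey bars) and of the separately listed genes that share their sequence (orange bars) in the 5 libraries (x axis). The orange bars carry nearly all of the signal of the Rpl26 and Rps27 pairs, and that of Rpl34-ps1 stands at 5.67 in MEFs and at 1809 in iPSCs.

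Shared sequence was common in the group. The median member had 35.8% of its 50-nt stretches in transcripts of other genes, 28 members had at least 50%, and only 3 had none. Members with at least 50% shared had a median FPKM of 1032 in MEFs and 1484 in V6.5 cells, and the 56 others had 815 and 1302. All members below an FPKM of 100 in any library were among those 56, with 10 in MEFs and 5 or 6 in each other library.

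The comparison of stem cells with fibroblasts was the first made by the study. Both V6.5 cells and iPSCs had higher values than MEFs for 77 of the 84 genes, against 52.3% of all 13656, and since both are set against the same MEF library the comparisons are not independent. The median log2 ratio over the members was 0.64 for V6.5 over MEFs (1.56-fold, quartiles 0.41 and 0.95) and 0.90 for iPSCs over MEFs (1.86-fold, quartiles 0.59 and 1.33). Over all 12840 and 13032 genes that reached an FPKM of 1 in either library of the pair, the medians were 0.25 and 0.31. Relative to these medians the members were higher by 0.39 and 0.58.

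In V6.5 cells 48 members were at least 1.5-fold higher and 1 was lower than in MEFs, while of all genes 40.7% were higher and 30.3% lower. The ratio was above 0 for 81 members, against 56.4% of all genes, and above the median of all genes for 75. In iPSCs 63 were higher and 1 lower, against 42.6% and 28.0% of all genes, and 80 were above 0, against 58.4%. The member lower in iPSCs was Rpl39l (-2.86). After all libraries were scaled to the same FPKM sum, 26 were higher and 1 lower in V6.5 cells, against 34.1% and 35.6% of all genes, so that the share of higher members was no longer above that of all genes. In iPSCs 42 were higher and 3 lower at this scaling, against 33.8% and 35.0%. Without Rpl10l and Rpl3l, which are listed at 0 in MEFs, the medians were 0.63 and 0.89.

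**Figure D4:**
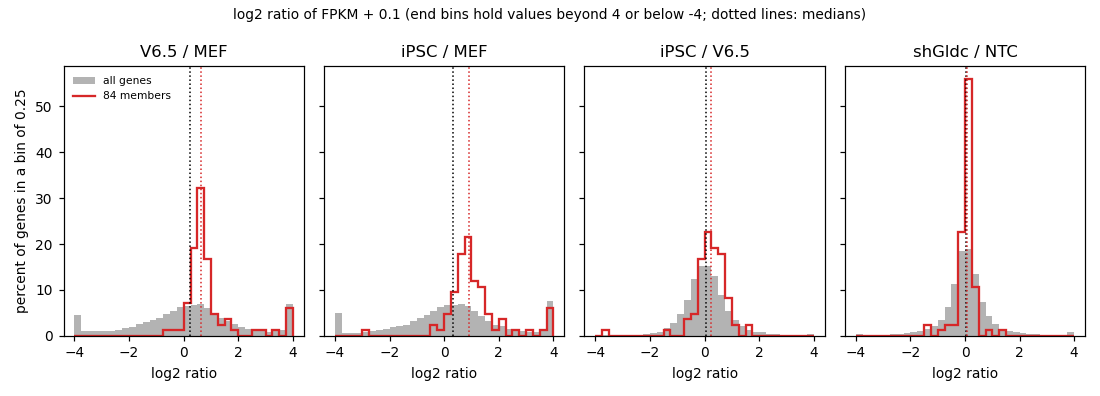
Percent of genes (y axis) by log2 ratio in bins of 0.25 (x axis) for the 84 ribosomal protein genes (red outline) and all genes that passed the filter (grey), in the 4 comparisons within a table. The red outline stands to the right of the grey median in the comparisons with MEFs (medians 0.64 and 0.90 against 0.25 and 0.31) and is narrow and centred near 0 for shGldc over NTC.

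The spread of the members' ratios over MEFs was narrower than that of other abundant genes. The robust SD of their log2 ratios was 0.40 for V6.5 over MEFs and 0.53 for iPSCs over MEFs. It was 0.76 and 0.74 over the 416 and 413 other genes that reached an FPKM of 100 in both libraries. The robust SD within other complexes was not computed, so a narrow spread is not shown to be particular to this group. Log2 ratios of 31 proteasome genes, for V6.5 over MEFs, lay between -0.37 and 1.71. The medians by subunit were 0.63 for large and 0.63 for small subunit genes in V6.5 cells, and 0.93 and 0.87 in iPSCs. Over the 77 canonical genes, Spearman's rho of these ratios with transcript length and with shared sequence lay between -0.098 and 0.092. These values describe ranks over the group, and whether length or shared sequence shaped the ratio of a single gene was not tested. The 26 canonical genes with a pyrimidine run near the start, transcribed or not, had medians of 0.65 and 0.75, and the 31 without had 0.59 and 1.02.

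Some members were far below the others in MEFs. Rpl21, a large subunit protein, had an FPKM of 0.404, 109.8, 155, 56.8 and 62.6, so that its log2 ratio was 7.77 in V6.5 cells and 8.26 in iPSCs. With a pseudocount of 1 in place of 0.1 these were 6.30 and 6.79. Rpl29, another large subunit protein, which binds heparin outside the ribosome, had 6.51, 394, 610.5, 417 and 266, with log2 ratios of 5.90 and 6.53. The MEF values of Rpl21 and Rpl29 stand for roughly 11 and 103 sequenced fragments. Rpl21 shared stretches with 82 other genes, of which only BC004004 has values here. BC004004 had an FPKM of 20.99, 14.1, 17.2, 12.6 and 15.4.

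Rps18, a protein of the small subunit head and a common reference gene for qPCR, had 205, 3511, 4086, 2617 and 2893, with log2 ratios of 4.10 and 4.32. Of its stretches, 79.4% were shared with 13 other genes, none of which has values here. Which copy its reads came from was not tested. Rpl35a, mutated in some patients with Diamond-Blackfan anaemia, had 115, 807, 1426, 323 and 381. Rps2 had a ratio of 1.99 and 2.25. In all of these, MEFs had the lowest value and every stem cell library was above it.

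At the other end, Rps27a, which encodes a fusion of ubiquitin with a small subunit protein, was lower in V6.5 cells than in MEFs, at 518, 308, 942, 226 and 609 and a log2 ratio of -0.75, but higher in iPSCs (0.86). It was the only member at least 1.5-fold lower in V6.5 cells. Of its stretches, 62.4% were shared with other genes. Rpl10, a large subunit protein at the peptidyl transferase centre, had 1313, 1319, 1057, 1138 and 1128, and its ratios of 0.0064 and -0.31 put it below the median of all genes in both comparisons. Rps15a, a small subunit protein and one of the canonical members with the lowest levels, had 113, 106, 155, 76.3 and 89.8, with ratios of -0.094 and 0.45. Rpl15, a large subunit protein with 513, 583, 499, 600.1 and 679.6, was also below the median of all genes in both, at 0.18 and -0.039. Rplp0, a stalk protein and a reference gene, had 2663, 2664, 3780.1, 2833 and 2744, with 0.00050 in V6.5 cells and 0.51 in iPSCs.

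By role, the median log2 ratio over MEFs of the 3 stalk genes was 0.20 for V6.5 cells and 0.51 for iPSCs, and none was 1.5-fold higher in V6.5 cells, against 40.7% of all genes. The genes of the particle with the smallest ribosomal RNA, Rpl5 and Rpl11, which can also bind the p53 regulator Mdm2, had log2 ratios of 0.98 and 0.55 in V6.5 cells and 1.55 and 0.65 in iPSCs. Their FPKM were 349, 687, 1021, 385 and 411 for Rpl5 and 1395, 2037, 2181, 2053 and 2080.4 for Rpl11. The exit tunnel genes Rpl23a, Rpl35 and Rpl39 had log2 ratios of 0.50, 0.25 and 0.27 in V6.5 cells and of 0.55, 0.73 and 0.74 in iPSCs.

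Rps6, the target of the ribosomal S6 kinases below mTOR, had 774, 1365, 1242, 961 and 1168, and Rpsa, also known as the laminin receptor, had 818, 2021, 2236, 1834 and 2015. Their log2 ratios were 0.82 and 1.31 in V6.5 cells and 0.68 and 1.45 in iPSCs. Of 10 members mutated in Diamond-Blackfan anaemia, an inherited failure of red cell production, 7 were at least 1.5-fold higher in V6.5 cells and 10 in iPSCs, against 48 and 63 of all 84 members and 40.7% and 42.6% of all genes. Both counts include Rpl26, at an FPKM of only 0.796 in MEFs, 5.30 in V6.5 cells and 2.03 in iPSCs. With Gm15772 added, its log2 ratios were 1.06 and 1.66. Rps19, the first of the 10 genes to be linked to the disease, had 778, 1419, 2276, 1194 and 1579.7. Of the others on the small subunit, Rps24 had 663, 1074, 1552, 705 and 723 and Rps26 had 1637, 2572, 2952, 2198 and 2155, both with the lowest value in MEFs. Rpl24, Rpl38 and Rps7, whose mutations alter pigmentation or the skeleton in mice, had ratios of 0.59, 0.35 and 0.54 in V6.5 cells and of 0.73, 1.25 and 1.20 in iPSCs.

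As reference genes are used to scale qPCR, the 4 listed here are given together. Rpl13a, Rpl19, Rpl32 and Rps18 had log2 ratios of 0.47, 0.33, 0.62 and 4.10 for V6.5 over MEFs and of 1.07, 1.21, 1.16 and 4.32 for iPSCs over MEFs. For shGldc over NTC they were 0.042, 0.19, 0.067 and 0.14.

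Between the pluripotent lines, iPSCs had somewhat higher values than V6.5 cells. The median log2 ratio was 0.25 (quartiles -0.052 and 0.55), against 0.043 for all 12323 genes. At least 1.5-fold higher were 17 members, against 20.9% of all genes, and 5 were lower, against 16.8%. Ratios above 0 were found for 61 members, against 52.6% of all genes, and after scaling to the same FPKM sum for 55, against 48.4%. The share of members past 1.5-fold was thus near that of all genes on the higher side and below it on the lower side. For small subunit genes 27 of 31 ratios were above 0, and for large subunit genes 32 of 46. The robust SD was 0.44 over the members and 0.47 over 627 other genes that reached an FPKM of 100 in both libraries.

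The highest ratios of iPSCs over V6.5 belonged to Rps27a (1.61), Rpl10l (1.61), Rpl30 (1.15), Rpl23 (1.10) and Rpl34 (1.00). Rpl30, whose protein binds its own transcript in yeast, had FPKM of 242, 465, 1034, 238 and 324, and Rpl23, a large subunit protein that can also bind Mdm2, had 431, 626, 1344, 438 and 476. The lowest were Rpl39l (-3.60), Rpl26 (-1.34), Rpl22l1 (-0.72), Rpl3l (-0.63) and Rpl7a (-0.60). With Gm15772 added, the Rpl26 ratio was 0.59, so its direction depends on the copy. With Rpl34-ps1 added, the Rpl34 ratio was 1.76. Rpl39l, Rpl22l1 and Rpl3l are paralogs, and Rpl7a is a large subunit protein with FPKM of 603, 1345, 888, 1705 and 1125.

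Knockdown of Gldc in V6.5 cells was compared with the NTC, within the second table. Gldc itself had a log2 ratio of -5.11. The ribosomal protein genes had a median log2 ratio of 0.075 (1.05-fold, quartiles -0.041 and 0.17), against 0.035 over all 11969 genes. At least 1.5-fold higher were 2 members, against 17.5% of all genes, and 5 were lower, against 14.9%. Ratios above 0 were found for 58 members, against 52.8% of all genes, and after scaling to the same FPKM sum for 53, against 49.9%. The group held 21.7% of the FPKM sum in NTC and 22.1% in shGldc cells.

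The spread of the ratios was narrow, with a robust SD of 0.16 over the members, 0.27 over 735 other genes that reached an FPKM of 100 in both libraries, and 0.53 over all genes. Small changes were not particular to this group. Of 31 proteasome genes, 0 were at least 1.5-fold higher and 0 lower, against 17.5% and 14.9% of all genes, with ratios between -0.22 and 0.43. Large subunit genes had a median of 0.060 and small subunit genes of 0.12. For 25 of 31 small and 30 of 46 large subunit genes the ratio was above 0. For the abundant members the levels were close: Rplp1 was at 5325 and 5587, Rpl8 at 4465 and 4256, and Rplp0 at 2833 and 2744.

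The members past 1.5-fold were Rps27a (1.43) and the paralog Rpl39l (0.92) on the higher side. On the lower side they were Rpl3l (-1.36), Rpl26 (-1.35), Rps27 (-0.79), Rpl29 (-0.65) and Rpl7a (-0.60). Adding the listed copies turned the ratio of Rpl26 to 0.31 and that of Rps27 to 0.096, which leaves 3 on the lower side. The FPKM of Rpl3l were 4.99 in NTC and 1.89 in shGldc cells. Rps27a was 226 in NTC and 609 in shGldc cells, and in the first table it was 308 in V6.5 cells and 942 in iPSCs. Which copy its reads came from was not tested, and 62.4% of its stretches were shared with other genes. Fau, a ubiquitin-like fusion to another small subunit protein, had a ratio of 0.11.

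Rps23, a small subunit protein at the decoding centre, Rpl30 and Rps19 came next on the higher side, with 0.42, 0.45 and 0.40, all below 1.5-fold. Rps23 was at 1595 and 2135.

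Untreated V6.5 cells and NTC cells are the same line in separately made tables, and their values are set side by side only. Set over the untreated cells, NTC cells had a median log2 ratio of -0.22, against -0.065 for all 12048 genes, with a robust SD of 0.37 over the members and 0.32 over 692 other genes that reached an FPKM of 100 in both libraries. At least 1.5-fold higher were 2 members (12.8% of all genes) and lower were 16 (21.1% of all genes), and 23 were above 0 (45.6% of all genes). The share of the FPKM sum was 24.1% in untreated and 21.7% in NTC cells. This difference between libraries of one line, which crosses tables and culture with a vector, was larger than that between NTC and shGldc.

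The paralogs are described one by one. Rpl10l, an autosomal single-exon copy of the X-linked Rpl10 known for its part in male meiosis, was listed at 0 in MEFs and had FPKM of 31.5 in V6.5 cells, 96.1 in iPSCs, 113 in NTC and 130 in shGldc cells. It lies on chromosome 12 (66283379 to 66284401, minus strand). It made up 2.33%, 8.33%, 9.002% and 10.3% of the pair with Rpl10 in the 4 stem cell libraries. Of its stretches, 7.60% were shared with other genes. Rpl3l, the muscle form of Rpl3, was also listed at 0 in MEFs and stayed at or below 4.99 elsewhere, which was at most 0.36% of its pair.

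Rpl39l, a form of the tunnel protein Rpl39 known from testis and some cancers, had 10.8, 18.1, 1.404, 48.6 and 91.9. It shared none of its stretches with another gene. It was lowest in iPSCs, at 0.11% of its pair with Rpl39, and highest in shGldc cells, at 10.7%. Rpl39 itself ranged between 766 and 1324. The iPSC value of Rpl39l stands for roughly 21 sequenced fragments.

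Rps4l had the highest values of the paralogs in the 4 stem cell libraries. It had 77.6, 808, 683, 1076 and 1070.5 and made up 6.83, 34.4, 30.01, 56.3 and 54.1 percent of its pair with the X-linked Rps4x. It was above Rps4x in NTC and shGldc cells, and its MEF value was far below the other 4, which lay between 683 and 1076. It lies in chromosome 6 (148354656 to 148355598, plus strand), and its bounds overlap those of Tmtc1 on the other strand. Whether any reads of Tmtc1 were counted for it was not tested. Of its stretches, 14.9% were shared with 1 other gene, which has no values here.

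Rpl22l1 made up between 32.6% and 61.4% of its pair with Rpl22, a large subunit protein that can repress it. Rpl22l1 had 197, 247, 149.6, 125 and 104 and Rpl22 had 124, 222, 309.8, 160.0 and 179. Rpl22l1 was the higher in MEFs and V6.5 cells and the lower in iPSCs, NTC and shGldc cells, with its largest part of the pair in MEFs and its smallest in iPSCs. Rpl7l1, a relative of Rpl7 with a part in ribosome assembly, had 46.97, 149, 127, 147 and 126, with MEFs lowest. Rps27l, a p53 target, had 467, 491, 513, 417 and 552. These values span a narrow range, and Rps27l was above Rps27 in every library, most of whose pair with Rps27rt is listed under the latter.

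**Figure D5:**
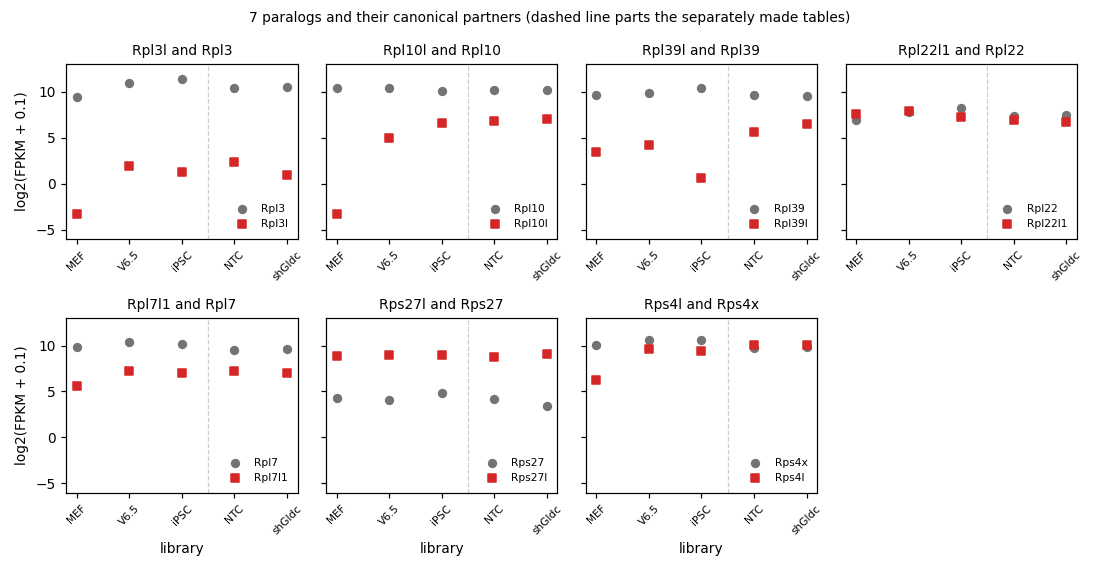
Level, as log2(FPKM + 0.1) on the y axis, of 7 paralogs (red squares) and their canonical partners (grey circles) in the 5 libraries on the x axis. Rpl10l and Rpl3l are listed at 0 in MEFs, Rpl39l is lowest in iPSCs, and Rps4l is near the level of Rps4x in NTC and shGldc cells and below it in the other libraries.

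Other genes of the ribosome have symbols that the rule does not cover. Fau, the ubiquitin-like fusion gene, had 869, 898, 1293, 994 and 1072, and Gnb2l1 (also called Rack1), a scaffold on the small subunit, had 1963, 2622, 3889, 2947 and 3535. Rpl36al, the paralog of Rpl36a, had 229, 448, 415, 468 and 452.

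The machinery that builds and serves ribosomes was described with lists written by hand. Of 44 ribosome biogenesis genes, such as the methyltransferase Fbl and the pseudouridine synthase Dkc1, 41 were at least 1.5-fold higher in V6.5 cells than in MEFs and none was lower, against 40.7% and 30.3% of all genes, with a median log2 ratio of 1.17 against 0.25. In iPSCs 36 were higher and none was lower, against 42.6% and 28.0%, with a median of 0.99 against 0.31. Dkc1 had 10.6, 45.2, 30.3, 31.4 and 27.9 and Fbl had 155, 407, 414, 449.9 and 443. Of 14 genes of RNA polymerase I and its factors, 12 and 11 were higher in V6.5 cells and iPSCs, against 40.7% and 42.6% of all genes, with medians of 1.13 and 1.23 against 0.25 and 0.31.

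These lists differed from the ribosomal protein genes between iPSCs and V6.5 cells, where the medians were -0.20 for biogenesis and -0.15 for polymerase I, against 0.25 for the ribosomal proteins. In shGldc over NTC the medians were -0.14 and -0.11, against 0.075. In that comparison 4 of the 44 biogenesis genes were at least 1.5-fold lower and none was higher, against 14.9% and 17.5% of all genes. Heatr1, needed for ribosomal RNA transcription, was at 43.7 in NTC and 23.1 in shGldc cells. Whether these differences exceed the error between libraries was not tested.

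Other genes with TOP mRNAs were compared in the same way. The 5 elongation factor genes had medians of 0.62 in V6.5 cells and 0.48 in iPSCs over MEFs, and 12 other TOP genes had 0.40 and 0.28. For iPSCs over V6.5 the medians were -0.29 and -0.15, and for shGldc over NTC 0.056 and -0.18. Among them Tpt1, the tumour protein TCTP, had 1888, 1479, 3173, 1004 and 1345 and Eef1a1, the factor that brings aminoacyl-tRNA, had 5684, 6761, 5527, 4658 and 5364. Regulators of TOP mRNAs (10 genes, among them Mtor and Larp1) had medians of 0.41, 0.66, 0.18 and 0.0069 for V6.5 over MEFs, iPSCs over MEFs, iPSCs over V6.5 and shGldc over NTC.

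In the same order of comparisons, 12 chaperone and import genes of ribosomal proteins had medians of 0.75, 0.57, -0.018 and 0.034, with 11 of them in the last comparison. For 6 snoRNA host genes without a known protein, such as Snhg1 and Gas5, they were 0.49, 0.97, 1.04 and -0.36. All 6 had ratios below 0 in shGldc over NTC, where 52.8% of all genes were above 0, and none of the 6 was 1.5-fold lower. Snhg1 had 41.9, 69.1, 281, 43.3 and 39.8. The list of Myc family and p53 pathway genes (7 genes) had medians of -0.32, 0.99, 0.27 and 0.027. In it Myc had 31.3, 2.11, 4.61, 19.1 and 8.304, Mycn had 0.709, 35.3, 24.3, 48.5 and 28.98, and Mdm2 had 40.8, 28.6, 81.3, 19.8 and 35.7.

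For other complexes of many subunits, the medians in this order were 0.76, 0.76, -0.12 and 0.18 for 28 small and 0.72, 0.68, -0.13 and 0.14 for 48 large subunit genes of the mitochondrial ribosome. They were 0.67, 0.48, 0.12 and 0.085 for 31 proteasome genes, and 0.53, 0.67, 0.18 and 0.14 for 69 respiratory chain genes. A median above 0 for both stem cell lines over MEFs was thus found in each of these lists as well. The medians of all genes were also above 0, at 0.25 for V6.5 cells and 0.31 for iPSCs. No test of a difference between lists is possible with these libraries.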

How the data were processed

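Total RNA was extracted with TRIzol and sequenced on an Illumina HiSeq instrument. The authors aligned reads to mm10 by TopHat2 (2.1.0), assembled transcripts with StringTie (1.3.4d), and computed expression with Ballgown. The submitters' processing notes also name SAMtools (1.7) and the build mm9. The gene annotation, strand setting and filters are not given in the sources used here. The authors deposited FPKM values of 24421 genes in 2 separately made tables. The column named sh3 was taken as the shGldc library, the only sample of that table besides NTC.

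From the FPKM values, log2 ratios of FPKM + 0.1 were computed within a table for genes that reached an FPKM of 1 in either library of the pair, and across tables side by side only for V6.5 and NTC. The pseudocount understates differences of low genes. A fold of at least 1.5 was counted. Depth was estimated from the steps between low values of 5723 genes with 1 transcript. Shared sequence was the percent of 50-nt stretches of a member's protein coding GENCODE M21 transcripts (all transcripts for Rps4l, which has no protein coding one) that occur in transcripts of other genes. Copies were listed when a pseudogene or Rps27rt held at least 10% of the stretches and reached an FPKM of 100. Calculations were tested on simulated data and used matplotlib 3.10.9, scipy 1.17.1, pandas 2.3.3 and numpy 2.4.6 under Python 3.11.15.

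Members and gene lists were chosen with earlier results of these data known. Named members were the paralogs and their partners, the 5 with the highest and the 5 with the lowest mean log2 level among members at an FPKM of at least 1 in every library, the 5 with the highest and the 5 with the lowest ratio in each comparison within a table, and members with a listed role. Some genes are not reported here. Rpl14, Rpl27a, Rpl36a, the copies and genes of other lists were named after their values were seen. Alternatives were a pseudocount of 1 or 0.01, scaling to the same FPKM sum of all or of other genes, centring on the median of all genes, a filter at an FPKM of 5 or none, the mean in place of the median, canonical members only, a 2-fold threshold, and leaving the 10 most abundant other genes out of the sum. Adding copies, keeping members under 50% shared, and leaving out members listed at 0 were chosen after seeing the data.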

Additional observations from a re-analysis of the deposited data

How the results depend on the processing

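A median log2 ratio or a ratio of a named gene counted as moved beyond a shift of 0.37, which is the robust SD of the members' ratios between NTC and untreated V6.5 cells, and a count or percent beyond a factor of 1.5. No median changed sign, and 58 of 60 alternative medians stayed within that bound. The exceptions were the means over the members, 1.05 for V6.5 over MEFs and 1.28 for iPSCs over MEFs. The medians over all alternatives lay between 0.39 and 1.05 for V6.5 over MEFs, 0.58 and 1.28 for iPSCs over MEFs, 0.19 and 0.33 for iPSCs over V6.5, 0.039 and 0.088 for shGldc over NTC, and -0.25 and -0.16 for NTC over V6.5. The percent of the FPKM sum stayed within 1.5 times in all 15 alternatives. Of 110 alternative counts 22 moved. At 2-fold, 18 members were higher and 0 lower in V6.5 cells over MEFs, 35 higher in iPSCs over MEFs, 4 higher and 2 lower in iPSCs over V6.5, 1 higher and 2 lower in shGldc over NTC, and 4 lower in NTC over V6.5. With the same FPKM sum or with centring, 26 were higher in V6.5 cells over MEFs and 3 lower in iPSCs over MEFs. With canonical members only, 0 were lower in iPSCs over MEFs, 2 lower in iPSCs over V6.5, 1 higher in shGldc over NTC and 0 higher in NTC over V6.5. Among members with under 50% shared sequence, 0 were lower in V6.5 cells over MEFs, 3 lower in iPSCs over V6.5, 1 higher in shGldc over NTC and 9 lower in NTC over V6.5. With copies added, 3 were lower in shGldc over NTC, and without members listed at 0, 1 was higher in NTC over V6.5. Fewer genes or a stricter fold give smaller counts by construction, and the scalings shift every ratio of a comparison alike. Among named genes the copies turned the ratio of Rpl26 to 0.59 in iPSCs over V6.5 and to 0.31 in shGldc over NTC, and that of Rps27 to 0.096 in shGldc over NTC. Another 20 of their 816 alternative ratios moved in size, all for Rpl3l, Rpl10l, Rpl21, Rpl26, Rpl34, Rpl39l or Rps27. With 1 library per group, no library could be left out, and low values such as those of Rpl21 or Rpl39l rest on few fragments. No paired analysis was possible because the groups hold 1 library each.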
